A study of Mus musculus with 30 samples.

Results

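The genes described here are 10 that mark stages of T cell development in the thymus, namely Ptcra, Rag1, Rag2, Dntt, Arpp21, Themis, Cd4, Cd8a, Cd8b1 and Ccr9. They are given by name, and all 10 were found by their Entrez number among the 23013 gene rows of a table of 30 Seq-Well libraries. Seq-Well is a single-cell RNA method in which cells and barcoded beads share small wells. The libraries came from 8 organs of 8 male DBA1/J mice, whose single ages the labels do not give. The 4 mice with collagen-induced arthritis (CIA), a model in which an immune response to cartilage collagen inflames the joints, had been injected with bovine collagen II (100 µg, with adjuvant), boosted on day 20, and reached arthritis scores of 3 to 8. The 4 healthy mice scored 0 and, by the study's methods, had received buffer. Thymus was sampled from the healthy mouse H6 and the CIA mouse S1, so that each state had 1 thymus. Lymph node was sampled from 4 healthy mice (H3, H4, H6 and H7) and 3 CIA mice (S1, S2 and S7), blood from 4 healthy and 3 CIA mice, and spleen, joint, lung, muscle and skin from 1 mouse per state. Organs had been frozen and thawed before cells were loaded, and blood stands for mononuclear cells.

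T cell precursors enter the thymus from the blood and pass through ordered stages. At first they carry neither of the coreceptors CD4 and CD8, and they rearrange their T cell receptor beta gene with the recombinase made of RAG1 and RAG2. A beta chain that pairs with the pre-T alpha chain (Ptcra) lets the cell divide and switch on both coreceptors. In this double-positive stage the recombinase acts again on the alpha gene, terminal transferase (Dntt) adds bases at the joints, and cells whose receptor passes selection keep 1 coreceptor and leave for blood and lymph node. Mature T cells therefore keep Cd4 or the Cd8 genes but have shut off the recombination genes.

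Rag1 (chromosome 2, 101638252 to 101649532) and Rag2 (chromosome 2, 101624712 to 101632528) are neighbours in the mouse genome GRCm38, and so are Cd8a (chromosome 6, 71373427 to 71379171) and Cd8b1 (chromosome 6, 71322788 to 71337492). Ptcra is on chromosome 17, Dntt on chromosome 19, Themis on chromosome 10, Cd4 on chromosome 6, and Arpp21 and Ccr9 on chromosome 9. The 250 bases before the annotated start of the 4 genes that lymph node listed at 0 are shown because these are the genes that set the thymus libraries apart. They are RefSeq sequences of build GRCm38.p6, written 5′ to 3′ on the strand of the gene, and capitals mark the E-box letters CAGNTG or CANCTG, the motif of the E proteins, a class of factors at work in lymphocyte precursors. The windows are chr17:46763713-46763962 (minus strand) for Ptcra, chr2:101649533-101649782 (minus strand) for Rag1, chr2:101624462-101624711 (plus strand) for Rag2 and chr19:41029025-41029274 (plus strand) for Dntt.
Ptcra: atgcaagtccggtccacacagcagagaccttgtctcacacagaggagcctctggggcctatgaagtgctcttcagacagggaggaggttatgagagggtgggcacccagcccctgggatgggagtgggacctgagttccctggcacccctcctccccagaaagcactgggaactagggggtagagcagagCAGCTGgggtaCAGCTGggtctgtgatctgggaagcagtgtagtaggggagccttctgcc
Rag1: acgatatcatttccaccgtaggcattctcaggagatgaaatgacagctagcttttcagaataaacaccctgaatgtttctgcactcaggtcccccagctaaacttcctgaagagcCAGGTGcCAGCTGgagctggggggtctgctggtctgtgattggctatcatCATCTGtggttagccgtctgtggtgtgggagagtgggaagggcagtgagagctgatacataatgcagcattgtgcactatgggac
Rag2: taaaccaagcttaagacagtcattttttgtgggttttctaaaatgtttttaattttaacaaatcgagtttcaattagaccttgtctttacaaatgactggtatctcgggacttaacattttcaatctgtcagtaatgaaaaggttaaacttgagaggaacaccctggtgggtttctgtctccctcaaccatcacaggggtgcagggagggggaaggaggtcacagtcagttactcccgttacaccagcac
Dntt: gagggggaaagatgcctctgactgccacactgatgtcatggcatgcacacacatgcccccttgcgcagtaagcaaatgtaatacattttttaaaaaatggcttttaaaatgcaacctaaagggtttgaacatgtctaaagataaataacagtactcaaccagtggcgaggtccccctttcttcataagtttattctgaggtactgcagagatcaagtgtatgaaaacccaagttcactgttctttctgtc
Searched on both strands, the E-box letters occurred 2 times before Ptcra and 3 times before Rag1, and they were not in the windows of Rag2 and Dntt. Of 32851 such windows in the mouse table, 44.8% held them. The Rag1 window also held TGTGGT, the core of the RUNX motif, 2 times, and 1 of these shares its first bases with the last E-box. The letters TGTGGT or ACCACA were in 14.0% of all windows. A match of letters does not show that a factor binds there.

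The deposited values were not single-cell counts. They were whole-number sums over a barcode and its nearest neighbours in the same library, called units here, and were scaled to a per-million share of the library total, written UPM. The 684 columns of the healthy thymus held 461 distinct profiles and 7886790 units, the 439 columns of the CIA thymus held 282 distinct profiles and 4844200 units, and the 9 lymph node libraries held 78 to 328 profiles each. Of 13 barcodes that occurred in more than 1 library, 0 were in a thymus library. All 6 T cell markers looked for were above 0 in both thymus libraries, with summed levels of 3943 and 3257 UPM. They were above 0 in all 9 lymph node libraries too (1004 to 2041 UPM), so that they show T cells but do not tell thymus from lymph node. Markers of thymic epithelium were near 0 (summed levels of 20.0 and 20.4 UPM over 5 genes in the table), as were those of fibroblasts (14.2 and 0 UPM), and dendritic cell markers were listed at 0. The lymph node library of H7 stood apart, since 4 red cell genes summed to 127820 UPM in it, against 95.3 to 30733 UPM in the other 8. Member calls between thymus and lymph node are also given without it, and other results include it unless stated. In the sums over a library, a smaller number of cells of a type and less RNA per cell cannot be told apart. The titles of the libraries end in CIA or 2CIA, which may mark a batch and is called the suffix. The healthy thymus carried CIA and the CIA thymus 2CIA, and lymph node libraries carried both.

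The 4 genes of recombination and of the pre-T cell receptor were found in the thymus libraries and almost nowhere else. Rag1, the catalytic subunit of the recombinase, stood at 242 UPM in the healthy and 79.7 UPM in the CIA thymus. Rag2, its partner, stood at 27.9 and 14.9 UPM. Ptcra, the invariant chain of the pre-T cell receptor, stood at 37.2 and 14.7 UPM. For each of these 3 genes the other 28 libraries listed 0. Dntt, the enzyme that adds bases without a template, was higher, at 519 and 343 UPM in thymus, and was listed at 0 in all 9 lymph node and all 8 blood libraries. It was above 0 in 2 other libraries of S1, at 1.08 UPM in spleen and 3.55 UPM in 1 of 2 joint libraries. Since rare genes had been taken out of some libraries before deposit, a 0 means only that the gene is listed at 0, and no fold is given against it.

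Arpp21 and Themis, which are on in cortical thymocytes, differed in how far lymph node shared them. Arpp21, which encodes a protein that binds RNA, stood at 684 UPM in the healthy and 597 UPM in the CIA thymus. Lymph node listed it at 0 in 8 of 9 libraries and at 27.3 UPM in that of H7. Outside these organs it was above 0 only in the joint library of S1 with Dntt, at 2.41 UPM. Themis, needed for positive selection of thymocytes, stood at 192 and 99.1 UPM in thymus. Every lymph node library held it too, at 14.5 to 56.1 UPM, and both thymus libraries lay above this range. Outside these organs it was highest in the blood library of H7, at 36.9 UPM.

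The coreceptor genes and Ccr9, which mature T cells also use, were shared most widely. Cd8a, the CD8 alpha chain, stood at 352 UPM in the healthy and 310 UPM in the CIA thymus, above the 9 lymph node libraries, which spanned 0 to 126 UPM. Cd8b1, the CD8 beta chain, stood at 404 and 185 UPM, and lymph node libraries spanned 39.5 to 239 UPM. The CIA thymus therefore lay inside the lymph node range for Cd8b1. Cd4, the coreceptor for class II molecules, stood at 140 and 83.0 UPM in thymus and at 0 to 70.0 UPM in lymph node. The libraries listed at 0 came from the CIA mice S2 and S7, and the other library of S7 held 56.6 UPM. Ccr9, the receptor of a chemokine made in thymus and gut, stood at 133 and 85.7 UPM in thymus and at 0 to 62.8 UPM in lymph node, with 4 of 9 libraries at 0.

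**Figure D1:**
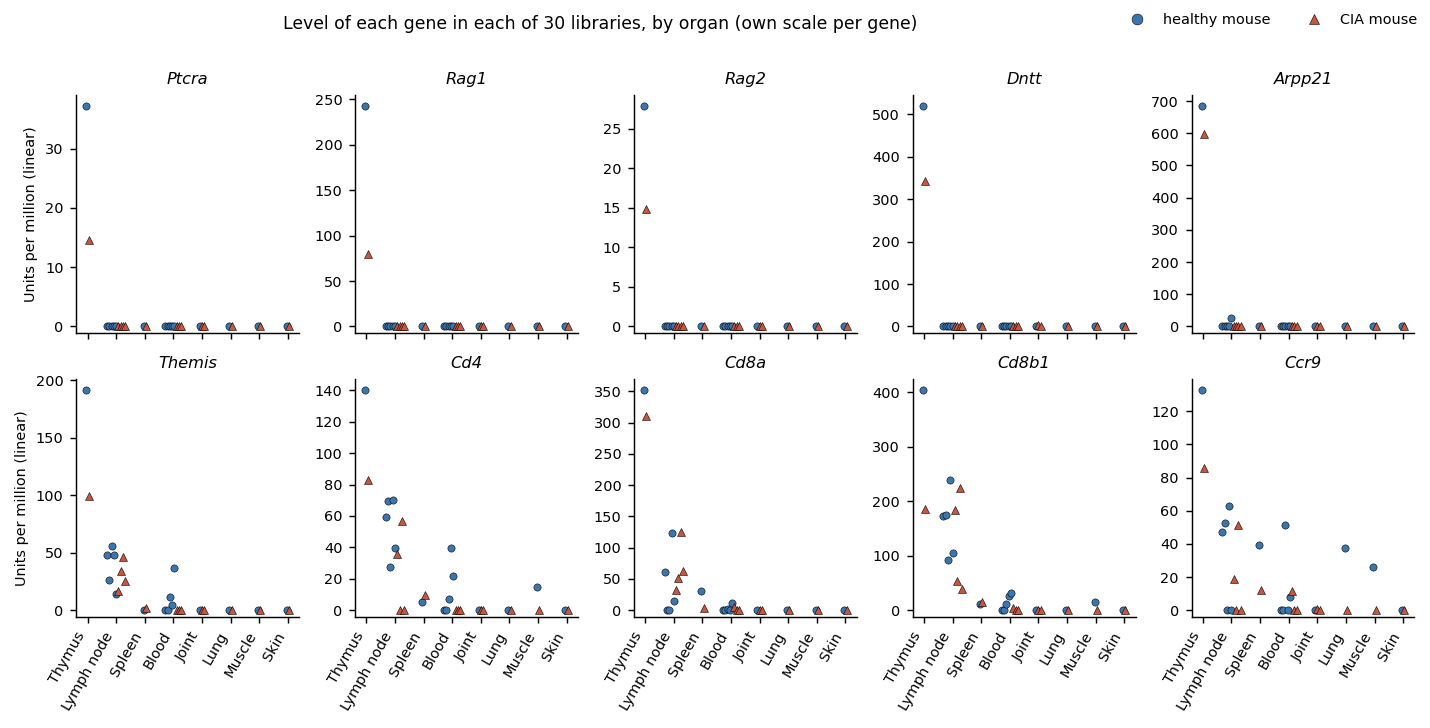
Level of each of the 10 genes (UPM, linear axis with its own scale per gene) in each of 30 libraries, grouped by organ; circles are healthy mice and triangles CIA mice. Ptcra, Rag1 and Rag2 are at 0 outside the 2 thymus libraries, whereas Themis, Cd4, Cd8a, Cd8b1 and Ccr9 reach into lymph node, and for Cd8b1 the CIA thymus (185) lies below the highest lymph node library (239).

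Over mice, with the libraries of a mouse and organ added up, the order of organs was led by thymus for each of the 10 genes. Cd8b1 averaged 295 ± 155 UPM (SD, n = 2) in thymus, 146 ± 59.9 UPM (n = 7) in lymph node, 13.3 ± 2.92 UPM (n = 2) in spleen, 9.80 ± 13.1 UPM (n = 7) in blood and 7.20 ± 10.2 UPM (n = 2) in muscle. Cd8a averaged 331 ± 29.9 UPM in thymus, 54.6 ± 44.5 UPM in lymph node, 17.1 ± 19.6 UPM in spleen and 2.82 ± 4.65 UPM in blood. Cd4 averaged 112 ± 40.5 UPM in thymus, 40.2 ± 22.1 UPM in lymph node, 9.60 ± 15.4 UPM in blood, 7.50 ± 10.6 UPM in muscle and 7.33 ± 3.06 UPM in spleen, and the last 3 did not differ beyond their spread. Themis averaged 145 ± 65.5 UPM in thymus, 34.8 ± 14.2 UPM in lymph node, 7.28 ± 13.5 UPM in blood and 1.08 ± 1.53 UPM in spleen. Ccr9 averaged 109 ± 33.4 UPM in thymus, and spleen (26.0 ± 19.3 UPM), lymph node (25.5 ± 23.3 UPM), lung (18.8 ± 26.7 UPM), muscle (12.9 ± 18.2 UPM) and blood (8.94 ± 15.7 UPM) did not differ beyond their spread. Spleen and blood overlapped for each of these 5 genes.

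The first comparison asked which of the genes were higher in thymus than in lymph node, the organ to which mature T cells move. Of the 5 members that lymph node held at a mean of at least 25 UPM, Cd8a, Ccr9 and Themis were called higher in thymus by limma, and Cd4 and Cd8b1 were not. Ccr9 was just above this mean in lymph node, at 25.5 UPM with 5 of 7 mice above 0. Among the 4054 genes that both organs held at such a mean, 17.1% were called higher in thymus and 16.3% lower. Of all 5753 genes tested, 20% were called higher in thymus and 18.3% lower, and their median log2 difference was 0.45. Arpp21, Dntt and Rag1 were called higher as well, which makes 6 of 10 members. These 3 genes were at or near 0 in lymph node and passed the filter of a mean of 25 UPM only through thymus, so that they had to differ and nothing is read from their calls. Ptcra and Rag2 were under the filter and were not tested.

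Cd8a differed by 2.80 ± 0.73 (SE, limma adjusted p = 0.00732), Ccr9 by 2.05 ± 0.70 (0.0314) and Themis by 1.80 ± 0.47 (0.00742). Cd4 differed by 1.45, with a 95% interval from 0.11 to 2.78 and a limma adjusted p of 0.0794. Cd8b1 differed by 0.97, with an interval from 0.036 to 1.91 and an adjusted p of 0.0912, and by 0.43 without the healthy thymus and 1.51 without the CIA thymus. These calls move with the settings. With 1 UPM added in place of 10, Cd8a and Ccr9 were not called (limma adjusted p = 0.0890 and 0.165), and without a filter Ccr9 was not (0.0784). Cd4 was called with 50 UPM added (0.0199) and without the lymph node of S2 (0.0479). The intervals of Cd4 and Cd8b1 also hold differences as large as that of Themis. The fitted differences of Arpp21, Dntt and Rag1 depend on the 10 UPM added before the logarithm and are no folds. Arpp21 (5.75) lay above Dntt (5.43) with 10 UPM added, and Dntt (8.72) above Arpp21 (8.63) with 1 UPM added.

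Lymph node and thymus came from the same mouse for H6 and S1. With the mouse as a fixed block, which leaves these 2 pairs to carry the comparison, 1198 of the 5753 genes were called in place of 2207. Cd8a (2.18, limma adjusted p = 0.0192) and Themis (1.92, 0.0263) stayed called, and Ccr9 did not (1.35, 0.121). Within H6, the level in thymus over that in lymph node was 3.99 for Themis, 2.85 for Cd8a, 2.11 for Ccr9, 2.00 for Cd4 and 1.69 for Cd8b1. Within S1, the ratio was 9.65 for Cd8a, 6.04 for Themis, 4.57 for Ccr9, 2.32 for Cd4 and 1.01 for Cd8b1. Cd8b1 thus showed the smallest ratio of these genes in either mouse. The CIA thymus lay within the range of the lymph node libraries for Cd8b1, at 185 UPM against a highest value of 239 UPM. Without the healthy thymus, Cd8a, Ccr9 and Themis lost their calls (limma adjusted p = 0.151, 0.280 and 0.160), and without the CIA thymus Cd8a (0.113) and Ccr9 (0.146) did. With any 1 mouse of either organ left out, the log2 difference ran from 2.42 to 3.04 for Cd8a, from 1.76 to 2.34 for Ccr9 and from 1.36 to 2.25 for Themis. In both cases 1 thymus library is left, and its spread is taken to be that of the lymph node mice. Without the lymph node of H7 all 3 stayed called.

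**Figure D2:**
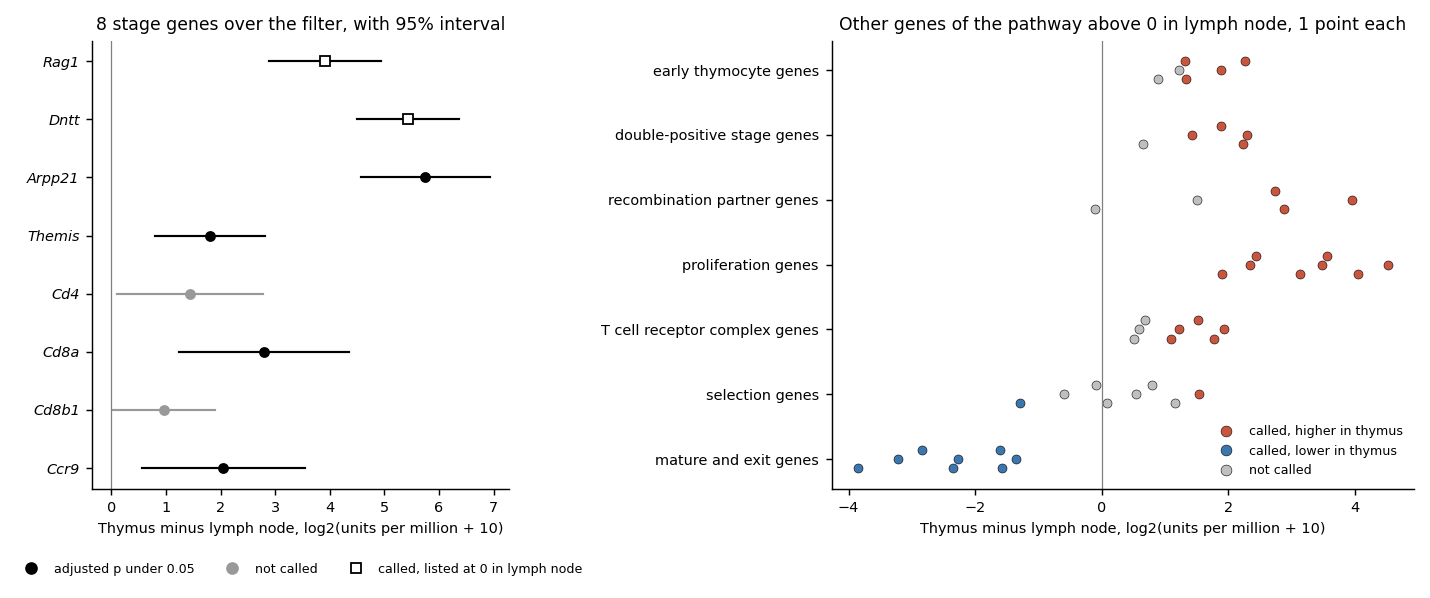
Difference between thymus (2 mice) and lymph node (7 mice) on the log2(UPM + 10) scale, for the 8 stage genes tested (left, lines are 95% intervals) and for the genes of 7 pathway lists (right, 1 point per gene). Cd8a, Ccr9 and Themis are called, Cd4 and Cd8b1 are not, and all 8 mature and exit genes lie to the left; open squares are listed at 0 in lymph node, so their size is no fold, and the right panel shows the genes above 0 in at least 1 lymph node library.

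Other genes of the pathway were grouped by the same stages. A list gene that 1 of the organs held under 25 UPM passed the filter only through the other organ. This favours a difference, though not all such genes were called, so that nothing is read from their calls. The genes that both organs held at a mean of at least 25 UPM are counted apart. Among 4054 such genes, 17.1% were called higher in thymus and 16.3% lower. Of 10 early thymocyte genes, 5 were held by both and 3 of these were called higher, led by Tcf7, a factor of T cell commitment (1.88 ± 0.31), and by Hes1, a Notch target (1.32 ± 0.37). Il2ra, the receptor chain that marks early double-negative cells, averaged 80.5 UPM in thymus and 11.3 UPM in lymph node. Of 8 double-positive stage genes, 3 were held by both and all 3 were called higher. These were Cd24a, a surface protein of immature cells (2.30 ± 0.39), Tcf12, which encodes an E protein (1.88 ± 0.33), and Satb1, which encodes a chromatin organizer (1.42 ± 0.27). The survival gene Bcl2l1 averaged 48.6 UPM in thymus and 2.17 UPM in lymph node.

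Of 10 genes whose products work with the recombinase or join its cuts, 3 were held by both organs and 2 of these were called higher. These were the DNA-bending proteins Hmgb1 (2.89 ± 0.28) and Hmgb2 (2.74 ± 0.28), which many dividing cells also make. Xrcc6, part of the Ku end-joining complex, averaged 175 UPM in thymus and 3.29 UPM in lymph node. All 4 of the 8 proliferation genes that both organs held were called higher, namely Top2a (4.05 ± 0.77), Mki67 (3.14 ± 0.52), Pcna (2.34 ± 0.42) and Tubb5 (1.91 ± 0.23). Stmn1 averaged 405 UPM in thymus and 9.33 UPM in lymph node, and Tyms 274 and 20.7 UPM. All 8 genes of the T cell receptor complex were held by both organs and 5 were called higher, with Cd247 (1.94 ± 0.51), Lat (1.77 ± 0.34) and Cd3g (1.52 ± 0.30) in front. Of 7 selection genes held by both, Cd69 was called lower (-1.29 ± 0.29) and none higher. Tox averaged 65.3 UPM in thymus and 17.2 UPM in lymph node.

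Of 8 mature and exit genes, 6 were held by both organs and all 6 were called lower in thymus. Ms4a4b, a membrane protein of mature T cells, averaged 58.1 UPM in thymus and 504 UPM in lymph node (-2.85 ± 0.33, limma adjusted p = 1.99e-05). S1pr1, the receptor by which T cells leave the thymus, stood at 6.72 and 0 UPM in thymus and at 92.7 to 253 UPM in lymph node. Ccr7, the homing receptor for lymph node, stood at 8.75 and 14.7 UPM in thymus and at 69.2 to 294 UPM in lymph node. Neither overlapped between the organs, but both passed the filter only through lymph node. Lymph node held B cells as well, whose 6 markers summed to 2303 to 4694 UPM there and to 62.6 and 247 UPM in thymus, and of the 6 only Cd74 was held by both organs (called lower, -4.24 ± 0.43). Their part in the differences above was not tested.

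The second comparison set thymus against the mean of the 7 other organs, with lymph node among them, so that it shares libraries with the first. It called 5 of 10 members higher by limma, where 4.02% of 5746 genes were called higher. The filter was a mean of 25 UPM over the 8 organs, which a gene that is low elsewhere passes only through thymus, so nothing is read from this count. Cd8b1 alone reached 25 UPM on both sides, at 295 UPM in thymus and at a mean of 25.2 UPM over the other organs, just above the filter. That mean came mostly from lymph node (146 UPM). Spleen averaged 13.3, blood 9.80 and muscle 7.20 UPM, and joint, lung and skin 0. Cd8b1 differed by 3.91 ± 0.62 (limma adjusted p = 8.49e-05). As most of the other organs were near or under the 10 UPM added, nothing is read from this call either. Without the healthy thymus Cd8b1 was no longer called, with 1 thymus library left. Cd8a averaged 331 UPM in thymus and 10.7 UPM over the other organs, and Ccr9 109 and 13.2 UPM. Arpp21 and Dntt were the other members called, and both were at or near 0 outside thymus. Rag1, Rag2, Ptcra, Themis and Cd4 were under the filter. The calls over all genes were split into 231 higher and 218 lower, and into 157 and 234 under trimmed-mean scaling.

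Outside thymus, units of Dntt and Arpp21 were listed in 3 libraries, and Ptcra, Rag1 and Rag2 were at 0. Dntt was above 0 in 10 of 606 columns of the joint library of S1 and Arpp21 in 19, and 9 columns listed both. These columns held 2 distinct profiles for Dntt and 4 for Arpp21, and none listed Rag1, Rag2 or Ptcra. In spleen of S1, 5 of 532 columns listed Dntt, each with 1 unit. In the lymph node of H7, Arpp21 was above 0 in 40 of 249 columns, which held 24 distinct profiles, with at most 3 units in a column. As columns share neighbours, such counts of columns do not give numbers of cells.

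Within the thymus libraries nearly every smoothed profile held Arpp21 and Dntt. Arpp21 was above 0 in 99.6% of profiles of the healthy and 98.9% of the CIA thymus, and Dntt in 98.0% and 94.7%. Rag1 was above 0 in 85.9% and 59.9% of profiles, with a median of 3 units and 1 unit where present. Rag2 was above 0 in 24.3% and 16.0%, and Ptcra in 25.2% and 13.5%, mostly with 1 unit, so that both lay near the lowest value a profile can hold. Rag1, Dntt and Arpp21 were listed together in 83.5% and 58.9% of profiles. A profile listed a median of 7 members in the healthy and 6.5 in the CIA thymus, and 0 to 2 in lymph node libraries. The median profile total was 8543 and 6708 units in thymus and 6235 to 10212 units in lymph node.

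The coreceptor genes were found together more often in thymus. Profiles with Cd4 and at least 1 of the Cd8 genes above 0 made up 67.5% of the healthy and 57.4% of the CIA thymus, and 0% to 42.4% of the lymph node libraries. Profiles with all 3 genes at 0 made up 0.868% and 1.77% in thymus and 10.6% to 63.9% in lymph node. Profiles with Cd4 and neither Cd8 gene were few in thymus, at 0.217% and 1.06%, and reached 11.1% in lymph node. A smoothed profile can join a CD4 cell with a CD8 neighbour, so these shares are not shares of double-positive cells. The lymph node libraries of S2 and, for the suffix CIA, of S7 listed Cd4 at 0 throughout, which sets their share of such profiles to 0.

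**Figure D3:**
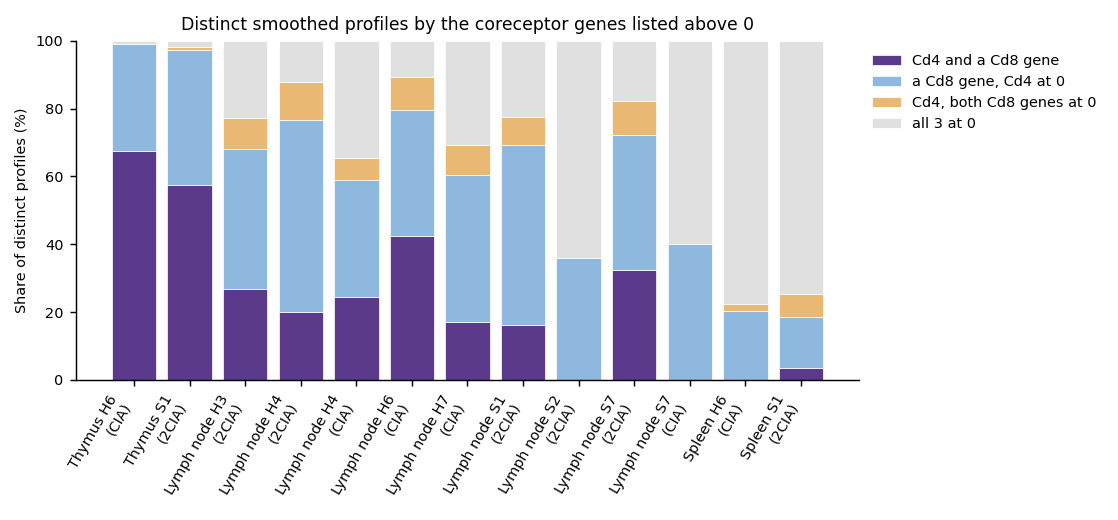
Share of distinct smoothed profiles (percent) in each thymus, lymph node and spleen library, with the title suffix in brackets, by which coreceptor genes are above 0. The part with Cd4 and a Cd8 gene is 67.5% and 57.4% in the 2 thymus libraries and at most 42.4% in lymph node.

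Across the distinct profiles of each thymus, pairs of stage genes were mostly weakly related. Over the 45 pairs, the median Spearman rho was 0.094 in the healthy thymus (461 profiles) and 0.029 in the CIA thymus (282 profiles), against 0.026 and 0.037 over all gene pairs kept. On units not scaled to the profile total it was 0.37 and 0.071. Pairs with a rho of at least 0.3 made up 11.1% and 13.3% of the member pairs and 2.27% and 5.86% of all pairs. In both libraries, 4 pairs (8.89%) had a rho of at least 0.2, where 1.63% of all pairs of the 4805 genes kept in both, 8 of the 10 members among them, did. These were Arpp21 with Cd8b1 (0.36 and 0.34), Cd8a with Cd8b1 (0.29 and 0.42), Rag1 with Cd8b1 (0.28 and 0.37) and Arpp21 with Cd8a (0.25 and 0.24). Cd8a and Cd8b1 encode the 2 chains of the CD8 dimer.

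Other pairs were not alike in the 2 libraries, and 18 of 45 (40%) had opposite signs, against 47.1% of all pairs of genes kept in both. Cd4 and Cd8a had a rho of 0.36 in the healthy and 0.0057 in the CIA thymus, and Cd4 and Cd8b1 of 0.44 and -0.023. Rag1 and Rag2, the partners in the recombinase, had a rho of 0.19 and -0.12. Ptcra and Cd8b1 had a rho of -0.068 and -0.35. Ptcra and Rag2 followed the proliferation genes in the healthy thymus (0.33 and 0.38), whereas in the CIA thymus the values were 0.023 and 0.056. Profiles share neighbours and a library, and in such sparse values a weak correlation is no finding, so these are given as a description.

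**Figure D4:**
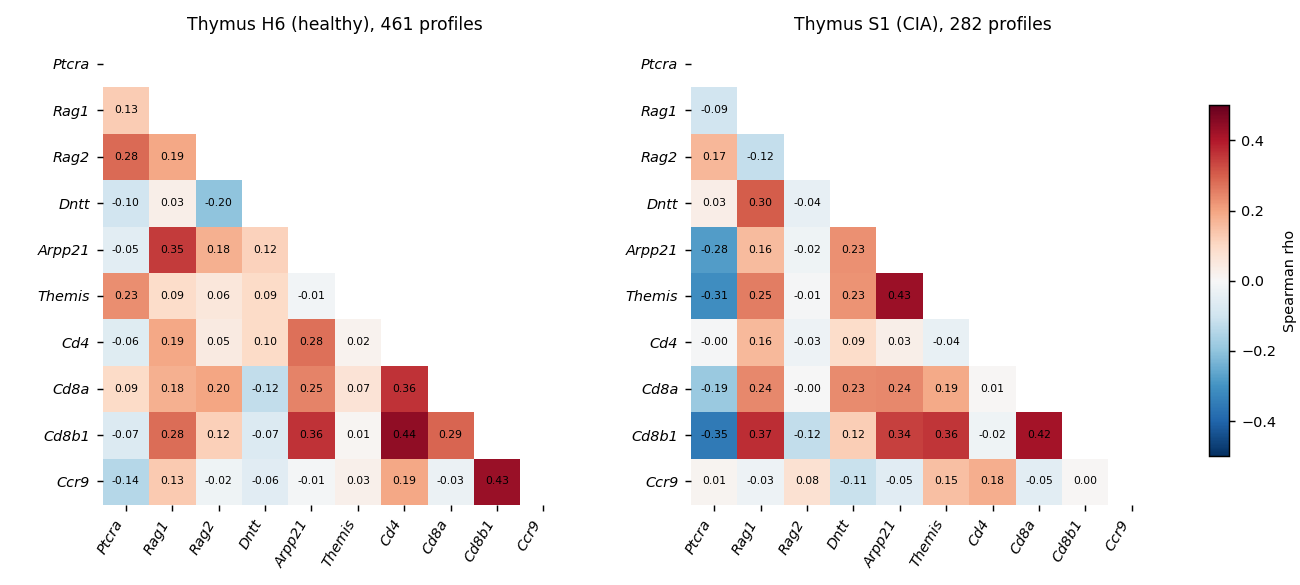
Spearman rho for each pair of the 10 genes across the distinct profiles of the healthy (left) and the CIA thymus (right), on UPM within the profile. The block of Rag1, Arpp21, Cd8a and Cd8b1 is above 0 in both panels, whereas Cd4 with Cd8b1 is 0.44 at left and -0.02 at right.

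The third question was whether the genes differed between the CIA and the healthy thymus, for which there was 1 mouse per state and no test. All 10 members were lower in the CIA thymus, as were 3010 of the 5896 genes kept. With 10 UPM added to both sides, the log2 ratio was -1.49 for Rag1 and -1.08 for Cd8b1, so that 2 of the 9 members kept were at -1 or below, where 6.61% of 5896 genes kept were. It was -0.94 for Ptcra, -0.89 for Themis, -0.69 for Cd4, -0.61 for Rag2, -0.59 for Dntt, -0.58 for Ccr9, -0.19 for Arpp21 and -0.18 for Cd8a. With identical profiles used once, the last pair of ratios was -0.12 and -0.082. With 1 UPM added in place of 10, Ptcra was at -1.28, below -1, and Rag2 at -0.87. No member was at 1 or above, where 10.4% of genes were. The median was -0.69 over the 9 members kept and -0.016 over all genes kept.

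The other lists of the pathway had medians closer to that of the whole, but most of their genes were lower too. The share ran from 5 of 8 selection genes kept to 7 of 8 double-positive stage genes and 7 of 8 proliferation genes. The median log2 ratio was -0.55 over early thymocyte genes, -0.29 over double-positive stage genes, -0.20 over selection genes, -0.22 over mature and exit genes, -0.18 over genes of the T cell receptor complex, -0.14 over recombination partners and -0.39 over proliferation genes. Genes of other cells differed in both directions. Summed over its 4 markers, the neutrophil level was 158 UPM in the healthy and 1428 UPM in the CIA thymus, with S100a8 at 89.8 and 1015 UPM. The B cell markers summed to 62.6 and 247 UPM, of which Cd74, a class II chaperone also found in other cells, made up 50.8 and 242 UPM, and Cd79a was at 0 in both. Cd79b was at 11.8 and 4.95 UPM. Summed erythroid markers were 199 and 261 UPM, with Hbb-bs at 168 and 251 UPM and Hba-a1 at 31.2 and 9.50 UPM. Col1a2, the one fibroblast marker found, was at 14.2 and 0 UPM. The part of these cells in the lower member levels was not tested, and state, mouse, depth and suffix cannot be told apart.

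**Figure D5:**
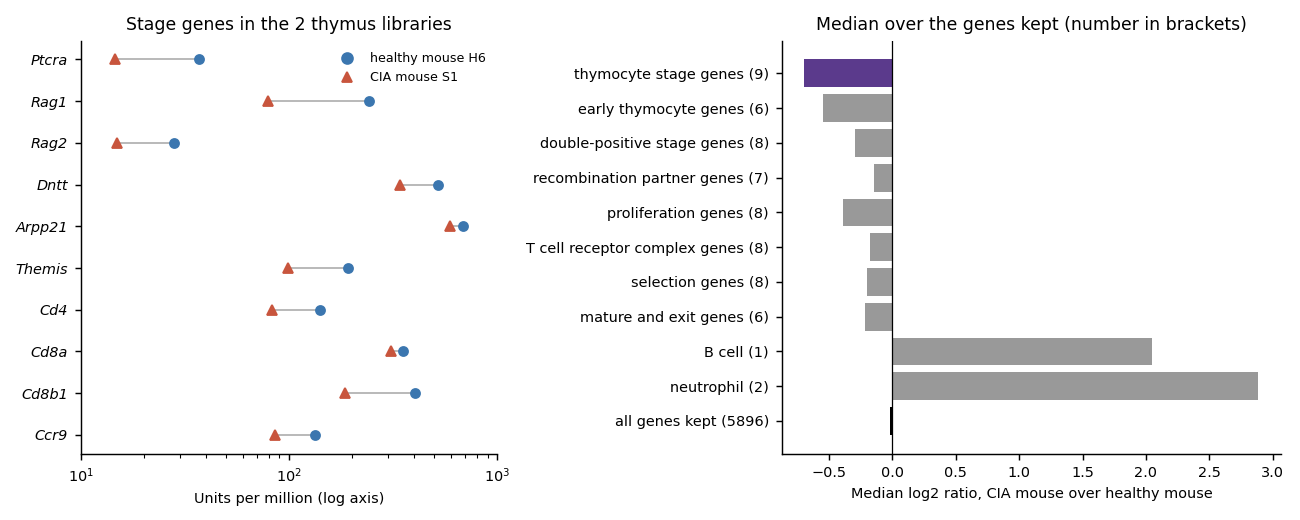
Levels of the 10 genes in the healthy (circles) and the CIA thymus (triangles) in UPM on a log axis (left), and the median log2 ratio of the CIA over the healthy thymus for each list (right, with the number of genes kept). Every stage gene is lower in the CIA thymus, with a median of -0.69, whereas the median of all genes is -0.016; each state has 1 library.

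In lymph node, where 4 healthy and 3 CIA mice could be compared, no member was called between the states. Of 4 members tested, Cd4 differed most, by -1.19 ± 0.55 (CIA minus healthy, limma adjusted p = 0.999, unadjusted p = 0.0442), with a 95% interval from -2.35 to -0.034. It was listed at 0 in S2 and in the library of S7 with the suffix CIA, and the other library of S7 held 56.6 UPM. Cd8a differed by 0.74 ± 0.67, Cd8b1 by -0.39 ± 0.40 and Themis by -0.27 ± 0.50. With 1 mouse left out, Cd4 ran from -1.57 (without S1) to -0.47 (without S2), Cd8a from 0.080 (without H4) to 1.33 (without H6), Cd8b1 from -0.71 (without S1) to 0.098 (without S2) and Themis from -0.58 (without H7) to -0.0060 (without S1), and none was called. The background in this comparison was 1 of 5063 genes (0.0198%), with 201 genes at an unadjusted p under 0.05. Ccr9 was under the filter, which here took the mean of the healthy and the CIA mean, and averaged 32.5 UPM in healthy and 16.3 UPM in CIA mice (exact permutation test, two-sided, p = 0.457). The intervals are wide enough to hold changes of more than 1 on the log2 scale for each of the 4 genes.

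In blood, 0 of 10 members passed the filter, so 0 were called, where 20 of 4304 genes (0.465%) were. Cd4 was found in 3 of 4 healthy mice and listed at 0 in all 3 CIA mice (mean 16.8 against 0 UPM), and Themis likewise (12.7 against 0 UPM). Each had a two-sided exact permutation p of 0.229, and over the 7 such tests made in blood and lymph node p ran from 0.229 to 1. Genes of other cells moved with this. The 6 T cell markers summed to 143 to 648 UPM in the healthy blood libraries, to 140 UPM in S2 and to 0 in S6 and S7, and none was called. The 4 neutrophil markers summed to 1363 to 5241 UPM in healthy and to 5235, 59365 and 72706 UPM in CIA blood, and all 3 that were tested were called higher in CIA by limma. Red cell genes summed to 32829 to 515834 UPM over the blood libraries. The part of these cells in the levels of Cd4 and Themis was not tested. The CIA blood libraries held 71, 22 and 33 distinct profiles, and the healthy ones with the suffix 2CIA held 7 and 31. The healthy libraries that listed Cd4 and Themis above 0 held 174, 191 and 596 profiles. All CIA blood libraries carried the suffix 2CIA, and both healthy blood libraries of that suffix listed the members at 0 as well, so that suffix and state cannot be told apart for these genes.

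Genes outside the list whose level over the 30 libraries was most like the mean of the members were Trbj2-1 (Pearson r = 0.88), Trbj2-3 (0.86), Chrna9 (0.86), Tox (0.86), Trbv15 (0.85), Cd247 (0.85), Pimreg (0.85), 1700097N02Rik (0.84) and Rmi2 (0.83), out of 10847 genes ranked. The libraries share mice and organs, and the 2 thymus libraries lie far from the rest, so r is a description here. Trbj2-1, Trbj2-3 and Trbv15 are segments of the T cell receptor beta gene, and Cd247 is its zeta chain. Chrna9, a subunit of the acetylcholine receptor, stood at 144 and 183 UPM in thymus and was listed at 0 in the other 28 libraries, as were Rag1, Rag2 and Ptcra.

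Some members overlap other genes, and reads of such a pair may not be told apart. Rag2 lies within the span of Iftap, which stood at 21.9 and 50.0 UPM in thymus and at 0 in lymph node. Arpp21 overlaps 2310075C17Rik (29.0 and 0 UPM in thymus) and 2900079G21Rik (20.8 and 47.3 UPM), both small beside its 684 and 597 UPM. Ccr9 overlaps Gm17021, which was at 0 in both organs.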

How the data were processed

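Seq-Well libraries of 8 mouse organs were used. The authors aligned reads to GRCm38 with STAR, used the Drop-seq tools to count UMIs, removed poor cells and smoothed the rest over nearest neighbours (k = 12). The values deposited by the authors are therefore a whole-number signal, not counts, so no count model, counting interval or detection limit was used. Of 8282 columns, 4590 were distinct. GEO's processing notes also name GRCh38 and mm9, and coordinates are those of GRCm38.p6 in a RefSeq gene table, which gave symbols for 21404 of 23013 rows.

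Units were summed per mouse and organ (26 sums), scaled to the total, and log2(UPM + 10) was fitted with limma 3.58.1 in R 4.3.3, with moderated variances, a mean-variance trend and a filter at a mean of 25 UPM. Two-sided p-values were adjusted by Benjamini-Hochberg over all genes, with calls under 0.05. Such a difference understates the change of low genes. The fit was tested on simulated data. H6 and S1 gave both thymus and lymph node, which pairs these samples; their deviations from the organ means had r = 0.054 and -0.12. Correlations over profiles used identical columns once.

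The members and lists were chosen with earlier results of these data known. Named were the members, the 3 called genes of each list with the largest difference, and the 10 genes most like the members, ranked at a mean of at least 5 UPM, a minimum added later; 1 gene among these is not reported here. Tcf12, Satb1, Mki67, Pcna, Tubb5, Cd74, Cd79a, Cd79b, S100a8, Hbb-bs, Hba-a1, Col1a2, Iftap and the other overlapping genes were named after their values were seen. Alternatives were other scalings, pseudocounts, filters, no trend, distinct profiles, blocks, suffixes and leaving out each mouse.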

Additional observations from a re-analysis of the deposited data

Results flagged for a closer look

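A sample far from the others was looked for in 11 groups, each a member in lymph node or blood of the 4 healthy mice. In 3 of them the farthest sample was H7, and the test is set so that chance flags about 1 in 20 groups of normally spread values. That rate does not hold for sparse values such as Arpp21, where a single value above 0 is always found. Arpp21 in lymph node was highest in H7, at 27.3 UPM, and was listed at 0 in the other 3 healthy mice. Themis in lymph node was lowest in H7, at 14.5 UPM, with the highest of the others at 48.0 UPM. Cd8a in blood was highest in H7, at 12.1 UPM, with the others at up to 1.64 UPM. In the lymph node library of H7, red cell genes summed to 127820 UPM, and their part in the first 2 values was not tested.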

How the results depend on the processing

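Thymus held 2 mice, and counts of calls rest on both. Between thymus and lymph node 2207 genes were called, 901 to 2261 when each mouse was left out in turn and 1198 with mouse as a fixed replicate block; members called were 6, and 3 to 7 with each mouse left out. Besides Ccr9, which lost its call in the block, the block changed no other member's call. The other settings that changed a member's call between thymus and lymph node stand beside its result. Against the 7 other organs 449 genes were called, 298 at a pseudocount of 1, 709 at a pseudocount of 50, 1226 without a filter and 45 to 124 without a thymus mouse; members called were 5, 10 without a filter and 3 to 7 without a thymus mouse. Between states in lymph node 1 gene was called, 9 without a filter, 0 without the trend, 3 with the suffix 2CIA only and 1 to 7 with each mouse left out; there Cd8b1 (-0.39) ran from -0.71 to 0.098, the last without the CIA mouse S2. In blood 20 genes were called, 5 under trimmed-mean scaling, 3 at a pseudocount of 1, 0 without the trend, 7 with the suffix 2CIA only and 0 to 21 with each mouse left out. The median rho of the pairs in the healthy thymus was 0.37 on units not scaled to the profile total. The causes of these changes were not tested. The median of all genes was 0.45, 0.50 and 0.39 under total, trimmed-mean and median-of-ratios scaling between thymus and lymph node, and each member called there kept its direction under these.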
